A study of Chlorocebus sabaeus with 3 samples.

Results

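The transcripts described here encode the translation initiation and elongation factors, together with TPT1, PABPC1 and PABPC4. They are 61 of the 33994 genes in the deposited tables, taken as every gene whose name starts with EIF or EEF and a digit plus the 3 genes named. The rule itself uses names and no measured value, but the members were chosen with earlier results of these data known. The RNA was cell-free RNA from amniotic fluid supernatant of vervet monkeys (Chlorocebus sabaeus), amplified from 100 ng per library. The stillborn library came from a pregnancy with the sex label M, the spontaneous abortion library from one with the sex label NA, and the alive library from one with the sex label F. Each status is 1 library of 1 pregnancy, so libraries are compared and not conditions, no p-value is given, and status and fetal sex cannot be told apart. Fetal age is not stated in these sources.

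Protein synthesis starts when eIF2 brings the initiator tRNA to the small ribosomal subunit. The eIF4 factors find the capped 5′ end of the mRNA, and eIF3 holds the assembly together until a start codon is met. Elongation is then driven by eEF1A, which delivers each charged tRNA, and by eEF2, which moves the ribosome on by a codon. Initiation is restrained by kinases that phosphorylate the alpha subunit of eIF2 and by proteins that bind eIF4E. Several of these factors, like the ribosomal proteins, are made from TOP mRNAs, which begin with a terminal oligopyrimidine tract and are translated under the control of mTOR.

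The deposited unit is RPKM, in which reads are divided by gene length and by library total. Whole reads could be recovered from these values, with totals of 17749954 reads in the stillborn library, 29926352 after spontaneous abortion and 20220899 in the alive library. Ratios between libraries were scaled by TMM (trimmed mean of M-values) and carry a 95% interval that covers counting error only. A gene was counted as past the limit at a scaled ratio of at least 2-fold either way, with an interval that left out 1 and at least 30 reads in the higher library. Recovery also gave the gene length behind each RPKM value, which ran from 840 to 103006 bases among the members. It exceeded 30000 bases for EIF4ENIF1, EIF4E3, EIF4G1 and EIF4G3. No source at hand says how length was defined, so the level of one gene set against another holds only per that length.

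Epithelial markers and fibroblast and matrix markers all reached RPKM 1 in each library. The T cell genes CD3D and CD3E were listed at 0 in all 3. Several marker lists differed between the libraries. Summed over 6 cell cycle genes, RPKM was 35.5 in the stillborn library, 113 after spontaneous abortion and 148 in the alive library. Over 5 squamous genes it was 834, 455 and 309 in the same order, of which KRT6A made up 588, 254 and 135. SPRR3 and CRNN fell in the order of KRT6A. KRT5 did not, at 49.1, 151 and 151, nor did KRT13, at 24.0, 33.7 and 19.5. The 6 monocyte and macrophage genes summed to 37.0, 10.3 and 12.6, with CD163 under 0.05 in each. CD68, LYZ, C1QB and TYROBP were highest in the stillborn library, but CD14 was highest in the alive library, at 1.33, 0.165 and 1.44. The 6 lymphocyte genes, CD3D and CD3E included, summed to 3.57, 0.534 and 17.4. Most of each sum came from GZMB, at 1.81, 0.2205 and 8.44, and GNLY, at 1.51, 0.256 and 8.84. PTPRC was instead highest in the stillborn library, at 0.2496, 0.0579 and 0.0591. NKG7 was listed above 0 only in the alive library, at 0.0577. Whether these lists have a part in the differences below was not tested. In fluid of this kind, fewer cells of a type and less RNA per cell cannot be told apart.

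Translation factor RNA was abundant in all 3 fluids. Of all RPKM summed over genes, the members took 5.19% in the stillborn library, against 4.51% after spontaneous abortion and 4.17% in the alive library. Without EEF1A1 and TPT1 these shares were 2.04%, 2.07% and 2.03%, which differ by little between the libraries. Of the 61 members, 58 reached a mean of RPKM 1 and 59 had at least 30 reads in their highest library. The median member stood at RPKM 30.9 in the stillborn library, 33.5 after spontaneous abortion and 45.1 in the alive library. Over the 10229 genes with a mean of at least 1, the median was 5.01, 5.55 and 5.67.

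The most abundant members were TPT1, EEF1A1, PABPC1 and EIF4G2, which together made up 78.6% of the members' RPKM in the stillborn library, 73.3% after spontaneous abortion and 69.1% in the alive library. The gene of the translationally controlled tumour protein, TPT1, ranked 3rd of all genes in each library. The other extreme was formed by EIF4E1B and EEF1A2. EIF4E1B, a relative of the cap-binding protein known from oocytes, was listed at 0 in all libraries. EEF1A2, the eEF1A isoform of muscle and neurons, had 0 reads in the stillborn library, 1 after spontaneous abortion and 0 in the alive library. A count of 0 allows it an RPKM of up to 0.17 in the stillborn and 0.149 in the alive library.

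**Figure D1:**
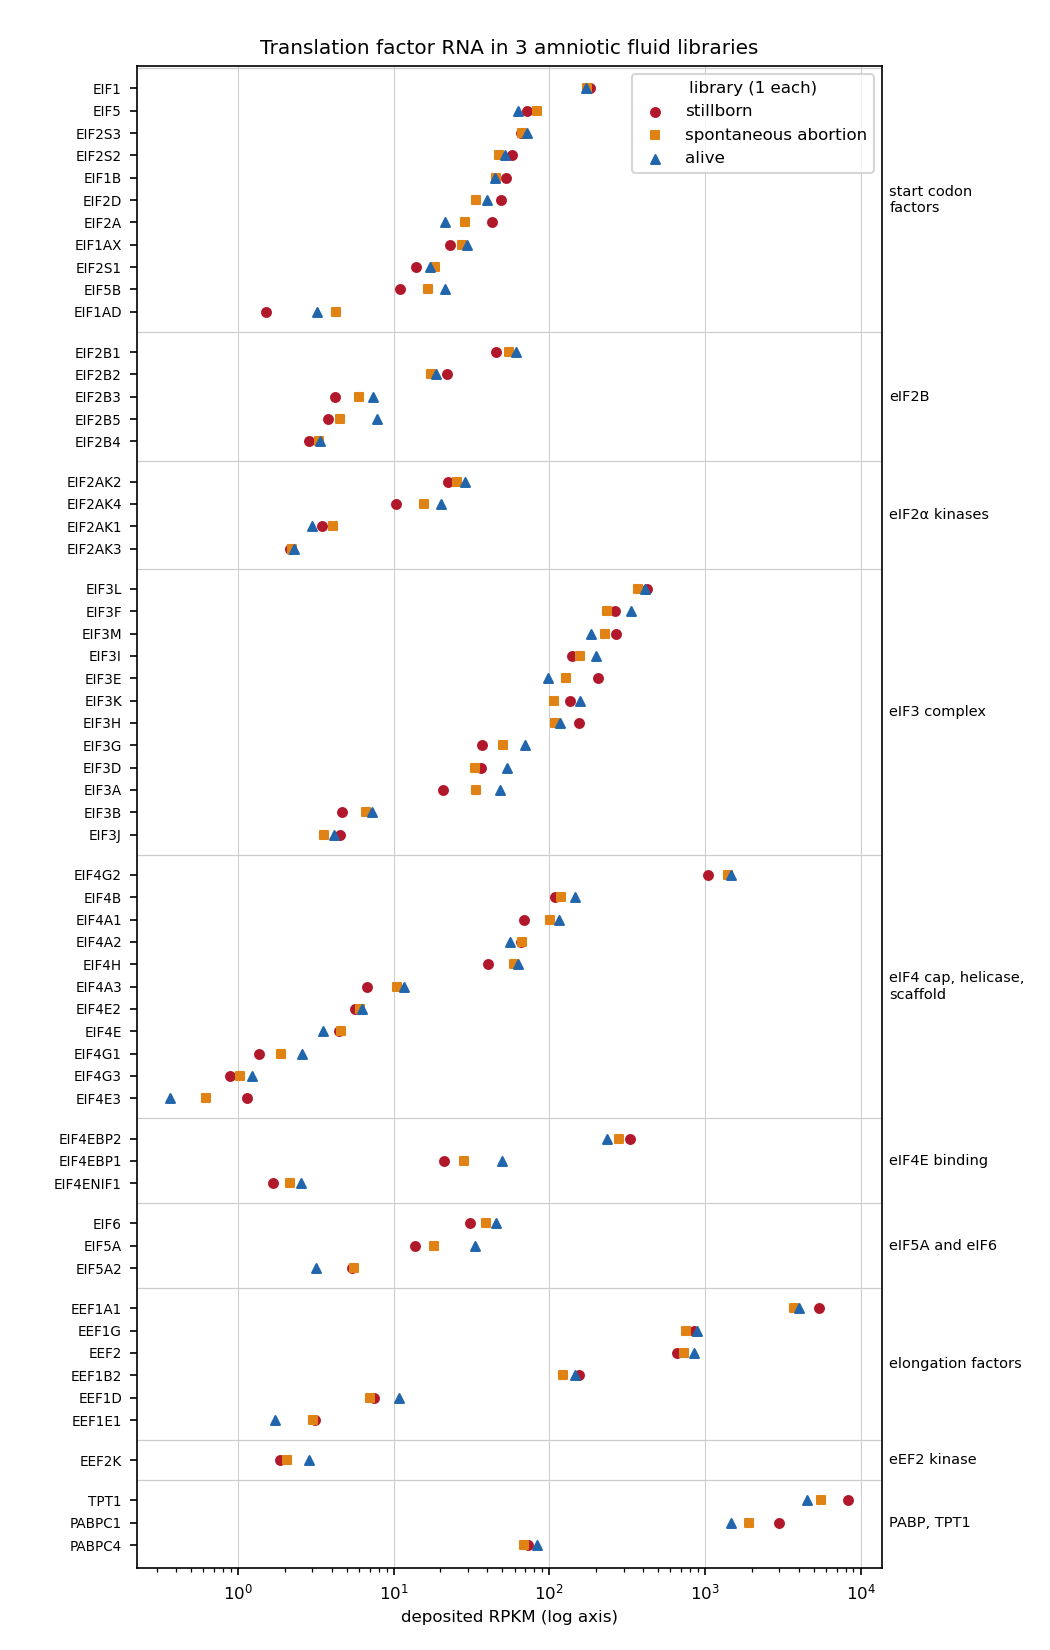
Deposited RPKM of the 59 members with at least 30 reads, on a log axis, 1 row per gene grouped by role and 1 point per library (red circle stillborn, orange square spontaneous abortion, blue triangle alive). TPT1 and EEF1A1 lie at the right end above RPKM 3000 in every library, and 34 of the 58 genes with a mean of at least RPKM 1 span less than 1.5-fold once scaled.

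Across the 58 members with a mean of at least RPKM 1, the highest library stood a median of 1.40-fold above the lowest, and 34 members stayed under 1.5-fold. That is 58.6% of them, beside 47.9% of the 10229 genes at that level. The spontaneous abortion library lay between the others for 37 of the 58 members (63.8%), as it did for 52.2% of all genes. It was the highest library for 5 members (8.62%, beside 24.7% of all genes). The stillborn library was the highest for 23 (39.7%, beside 37.4%) and the alive library for 30 (51.7%, beside 38.0%).

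Set against the alive library, the stillborn library had 6 of 59 members past 2-fold as higher and 3 as lower. Across all 13496 genes with enough reads, 13.1% were past the limit as higher and 12.5% as lower, while the members' shares were 10.2% and 5.08%. At a fold limit of 1.5 the counts were 10 and 11, beside 22.9% and 23.6% of all genes. The members higher by at least 2-fold were EIF4E3, EIF3E, PABPC1, EIF2A, TPT1 and EEF1E1. The lower ones were EIF5A, EIF4EBP1 and EIF3A. The median log2 ratio of the members was -0.11, beside -0.01 for all genes with a mean of at least RPKM 1, with 25 members above 0 and 33 below. Scaled by total assigned reads, which moves the median of all genes to -0.17, TPT1 stood at 1.84-fold and EEF1E1 at 1.81-fold, short of the limit, and EIF1AD and EIF2B5 passed it as lower at ratios of 0.473 and 0.483.

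None of the 59 members was past the limit between the spontaneous abortion and the alive library, in either direction. Among all 13851 genes with enough reads, 7.68% were past it as higher and 5.71% as lower. At a fold limit of 1.5 the members counted 3 as higher and 5 as lower, beside 15.4% and 13.1% of all genes. EIF5A2 had the highest ratio at 1.80 (95% interval 1.54 to 2.11), followed by EEF1E1 at 1.80 (1.46 to 2.24). The lowest was that of EIF5A at 0.563 (0.519 to 0.610), beside EIF2B5 and EIF4EBP1 at 0.591 each. The median log2 ratio of the members was -0.11, with 18 above 0 and 40 below, while that of all genes was -0.01.

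Between the losses, 1 of 59 members was past the limit as higher in the stillborn library and 1 as lower, or 1.69% each. The background was 7.54% as higher and 7.48% as lower over 13855 genes. At a fold limit of 1.5 the counts were 8 as higher and 1 as lower, beside 15.6% and 17.1% of all genes. The one higher by at least 2-fold was EIF4E3 at 2.02-fold (1.84 to 2.21) and the lower one EIF1AD, a protein with an eIF1A-like domain, at a ratio of 0.388 (0.319 to 0.468). The median log2 ratio of the members was -0.003, with 29 above 0 and 29 below. On total assigned reads EIF4E3 stood at 1.85-fold, short of the limit, and 23 members were above 0 and 35 below. That scaling moves the median of all genes to -0.14 as well.

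**Figure D2:**
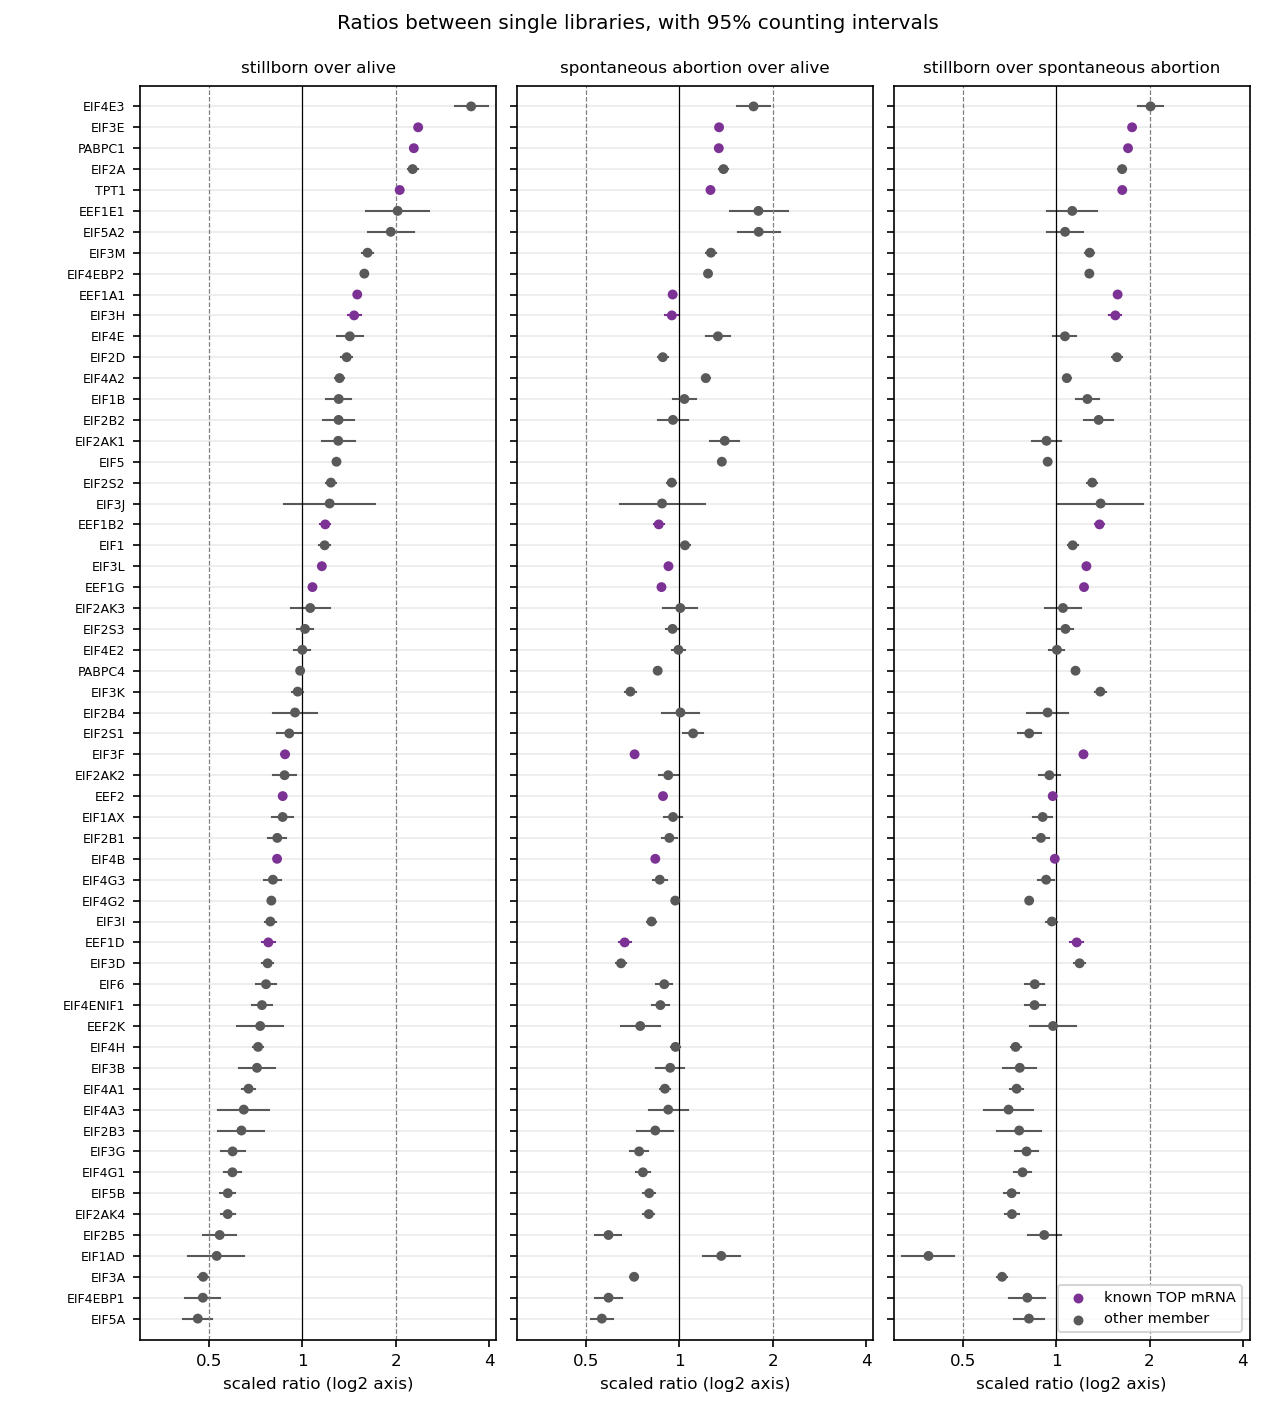
TMM-scaled ratio of each of the 59 members with at least 30 reads, on a log2 axis, with its 95% counting interval as a bar, in 3 comparisons of single libraries. Rows are ordered by the ratio of stillborn over alive, dashed lines mark 2-fold, and TOP mRNAs are purple. The points of stillborn over alive spread from 0.460 for EIF5A to 3.50 for EIF4E3, while no point of spontaneous abortion over alive lies past a dashed line.

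The elongation factors differed in which library was highest. EEF1A1, the main eEF1A, had RPKM 5406 in the stillborn library, 3729 after spontaneous abortion and 4028 in the alive library, so the stillborn library stood above the other libraries, which lay close together. The scaled ratio was 1.502 (1.49 to 1.51) for stillborn over alive and 0.952 (0.947 to 0.956) for spontaneous abortion over alive. EEF2, the translocase, was lowest in the stillborn library, at RPKM 658, 734 and 852. Its scaled ratio of stillborn over alive was 0.864 (0.852 to 0.875). Within a library, EEF1A1 exceeded EEF2 by 8.22-fold per length in the stillborn library, 5.08-fold after spontaneous abortion and 4.73-fold in the alive library.

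The subunits that recharge eEF1A with GTP are EEF1B2, EEF1D and EEF1G. EEF1G had RPKM 850.1 in the stillborn library, 753 after spontaneous abortion and 883 in the alive library. EEF1B2 stood at 154, 122 and 146, lowest in the spontaneous abortion library, as EEF1G was. EEF1D had RPKM 7.53, 7.04 and 10.9, highest in the alive library, with a scaled ratio of spontaneous abortion over alive of 0.667 (0.638 to 0.696). Its values stand for 2534, 3993 and 4161 reads over a recovered length of 18954 bases. EEF1B2 had 5264, 7003 and 5665 reads over 1920 bases, so the gap between these genes is smaller in reads. EEF1E1, which despite its name is a scaffold of the aminoacyl-tRNA synthetase complex, ran at a low RPKM of 3.14, 3.04 and 1.73. Its stillborn over alive ratio of 2.03 (1.61 to 2.56) rests on 194 against 122 reads. EEF2K, the kinase that inhibits eEF2, stood at RPKM 1.86, 2.07 and 2.85 in the same order.

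TPT1 and PABPC1 were graded across the 3 libraries in the same order. TPT1 had RPKM 8312 in the stillborn library, 5539.5 after spontaneous abortion and 4518 in the alive library. PABPC1, which binds the poly(A) tail and joins it to the cap complex through eIF4G, had 3004, 1918 and 1471. The scaled ratio of stillborn over alive was 2.06 (2.04 to 2.07) for TPT1 and 2.29 (2.27 to 2.31) for PABPC1. PABPC4, its paralog, showed no such grading, at RPKM 73.3, 69.2 and 83.5. PABPC1 accordingly exceeded PABPC4 per length by 41.0-fold in the stillborn library, 27.7-fold after spontaneous abortion and 17.6-fold in the alive library. In reads the excess was smaller, because the recovered length was 2847 bases for PABPC1 and 11623 for PABPC4. PABPC1 had 151803, 163420 and 84658 reads in the same order, and PABPC4 had 15129, 24054 and 19616. Reads shared with processed pseudogenes, which are common for EEF1A1, TPT1 and PABPC1 in primates, cannot be told apart in these values.

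The members listed as TOP mRNAs, from general knowledge and not from sequence, were EEF1A1, EEF1B2, EEF1D, EEF1G, EEF2, EIF3E, EIF3F, EIF3H, EIF3L, EIF4B, PABPC1 and TPT1. For stillborn over spontaneous abortion, 10 of these 12 were above 0 with a median log2 ratio of 0.39, against 19 of the 46 other members and a median of -0.09. On total assigned reads these were 10 of 12 and 13 of 46, with medians of 0.27 and -0.21, beside -0.14 for all genes. With TMM, 4916 of the 10229 genes with a mean of at least RPKM 1 were above 0. Without TPT1 and PABPC1, 8 of the 10 TOP members were above 0, with a median of 0.31. The 67 cytosolic ribosomal protein genes with a mean of at least RPKM 1 had a median of 0.52, all above 0. For stillborn over alive the medians were 0.23 for the TOP members, -0.20 for the other members and 0.16 for the ribosomal proteins. For spontaneous abortion over alive they were -0.15, -0.10 and -0.29. Over all genes with a mean of at least RPKM 1, the median was -0.02 for stillborn over spontaneous abortion and -0.01 in the other comparisons. On total assigned reads, 7 of the 12 TOP members were above 0 for stillborn over alive. Their median was then 0.06, beside -0.36 for the other members and -0.17 for all genes. These comparisons share libraries, and the difference between the lists was not tested.

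Subunits of eIF3 differed in level and in direction, although they belong to 1 complex. Per length, EIF3L had the most RNA, at RPKM 425 in the stillborn library, 369 after spontaneous abortion and 411 in the alive library. EIF3J, a loosely bound subunit, had the least, at 4.53, 3.55 and 4.14. EIF3E was past the limit as higher, with RPKM 207, 128 and 97.9 and a stillborn over alive ratio of 2.36 (2.30 to 2.42). EIF3A, the large scaffold subunit, was past it as lower, with 20.8, 33.8 and 48.6 and a ratio of 0.479 (0.461 to 0.497). The spontaneous abortion library lay between the others for both.

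The ratios of stillborn over alive of the remaining eIF3 subunits lay between those of EIF3A and EIF3E. EIF3M had RPKM 268, 228 and 185, with the libraries in the same order of level as for EIF3E. EIF3G ran the other way, at 37.2, 50.5 and 69.9, and so did EIF3I, at 139.8, 157 and 199. EIF3F was highest in the alive library, at 263, 234 and 335, and EIF3D was too, at 36.7, 33.5 and 53.1. For spontaneous abortion over alive, 10 of the 12 subunits were below 0 with a median log2 ratio of -0.24. So were 40 of the 58 members, with a median of -0.11, and 5155 of the 10229 genes, with a median of -0.01. Summed over the 12 subunits, deposited RPKM was 1696 in the stillborn library, 1459 after spontaneous abortion and 1686 in the alive library. The stillborn and alive sums lay close together in this unscaled unit. The TMM factors, 0.936 (stillborn) and 1.05 (alive), were not applied to them and would set the stillborn sum further above.

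**Figure D3:**
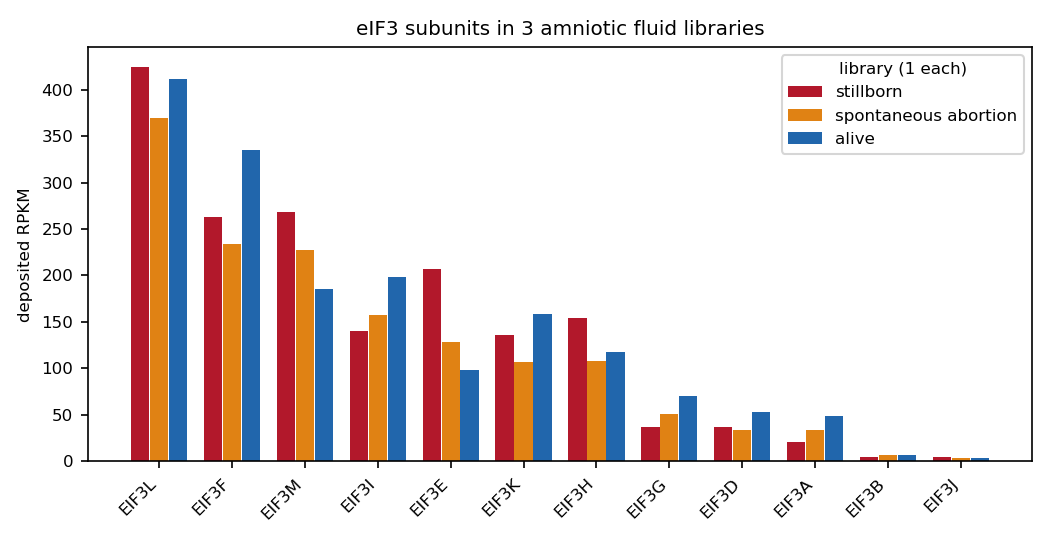
Deposited RPKM of the 12 eIF3 subunits, 1 bar per library (red stillborn, orange spontaneous abortion, blue alive), ordered by mean level. The stillborn bar is the tallest of the 3 and the alive bar the lowest for EIF3E and EIF3M, the reverse holds for EIF3A and EIF3G, and EIF3B and EIF3J lie under RPKM 8.

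The list of factors for the initiator tRNA and the start codon held 11 members. It included EIF1AD, described here only as a protein with an eIF1A-like domain. Of the 11, 1 was past the limit for stillborn over alive and 0 for spontaneous abortion over alive. For stillborn over spontaneous abortion it was 1, namely EIF1AD. Over all genes the shares past the limit were 13.1% as higher and 12.5% as lower, 7.68% and 5.71%, and 7.54% and 7.48% in these comparisons. EIF1, which guards the start codon choice, had RPKM 182 in the stillborn library, 176 after spontaneous abortion and 173 in the alive library. EIF2S3, the GTP-binding subunit of eIF2, had 65.4, 66.4 and 71.8. EIF2S1, the subunit phosphorylated under stress, had 13.9, 18.5 and 17.2, with a stillborn over alive ratio of 0.907 (0.826 to 0.996). The libraries differed by less than 1.5-fold for each of these genes. EIF5, which triggers GTP hydrolysis on eIF2, had 72.2, 83.7 and 62.7, highest in the spontaneous abortion library.

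The member of this list past the limit for stillborn over alive was EIF2A, which is not a subunit of eIF2 but a separate protein that can bind initiator tRNA. It had RPKM 43.0 in the stillborn library, 28.7 after spontaneous abortion and 21.3 in the alive library, a ratio of 2.27 (2.18 to 2.35) for stillborn over alive. EIF2D, another factor that can deliver tRNA without GTP, stood at 49.1, 34.0 and 39.5. EIF5B, the GTPase that joins the large subunit, had the reverse order at 11.0, 16.7 and 21.4 and a ratio of 0.575 (0.543 to 0.608). EIF1AD, the listed member past the limit between the losses, was lowest in the stillborn library, at RPKM 1.52 against 4.27 after spontaneous abortion and 3.22 in the alive library.

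Of the kinases that act on eIF2, EIF2AK2 (PKR, a sensor of double-stranded RNA) had RPKM 22.4 in the stillborn library, 25.6 after spontaneous abortion and 28.6 in the alive library. EIF2AK4 (GCN2, a sensor of uncharged tRNA) had 10.3, 15.6 and 20.2, with a stillborn over alive ratio of 0.574 (0.544 to 0.606). EIF2AK3 (PERK, the kinase of the endoplasmic reticulum) was level, at 2.16, 2.23 and 2.28. EIF2AK1, the haem-regulated kinase, had 3.46, 4.05 and 2.97, highest in the spontaneous abortion library. None of the 4 passed the limit in any comparison, a number of genes too small to set apart from the shares of all genes. Those shares, as higher and lower, were 13.1% and 12.5% for stillborn over alive. For spontaneous abortion over alive they were 7.68% and 5.71%, and between the losses 7.54% and 7.48%. The mRNA of ATF4, the transcription factor translated when eIF2 is phosphorylated, had RPKM 481 in the stillborn library, 380.0 after spontaneous abortion and 405 in the alive library. RNA levels do not show whether eIF2 was phosphorylated.

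The exchange factor eIF2B reloads eIF2 with GTP. Its subunit EIF2B5, which holds the catalytic domain, had RPKM 3.78 in the stillborn library, 4.49 after spontaneous abortion and 7.81 in the alive library. The alive library stood apart from both losses. The ratios were 0.541 (0.479 to 0.610) for stillborn over alive and 0.591 (0.537 to 0.651) for spontaneous abortion over alive. EIF2B1 was the most abundant subunit at 45.5, 55.4 and 61.3, and EIF2B3 had 4.17, 5.98 and 7.34. EIF2B2 differed from them in order, with 21.9, 17.4 and 18.8.

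At the cap, EIF4E had RPKM 4.47 in the stillborn library, 4.56 after spontaneous abortion and 3.52 in the alive library. Its relative EIF4E3 was low per length throughout, at 1.15, 0.621 and 0.368. These stand for 985, 897 and 359 reads over a recovered length of 48247 bases. EIF4E had 863, 1484 and 774 reads over 10870 bases. The stillborn over alive ratio of EIF4E3 was the highest of all members, 3.50 (3.10 to 3.96). EIF4E2, a cap-binding relative that acts in repression, was level at 5.61, 6.07 and 6.28. The scaffold EIF4G1 had 1.36, 1.90 and 2.56. EIF4G2 (DAP5), which lacks the eIF4E-binding part of EIF4G1, had 1050.2, 1397 and 1480.2. Both scaffolds were lowest in the stillborn library. EIF4G3, with the longest recovered length, had RPKM 0.884, 1.04 and 1.23, which stand for 1617, 3197 and 2567 reads.

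The helicases EIF4A1 and EIF4A2 differed in order across the libraries. EIF4A1 had RPKM 68.9 in the stillborn library, 101 after spontaneous abortion and 115 in the alive library, whereas EIF4A2 had 66.1, 66.5 and 56.2. Per length, EIF4A1 thus stood at 1.04 times EIF4A2 in the stillborn library, 1.51 times after spontaneous abortion and 2.05 times in the alive library. EIF4A3, a subunit of the exon junction complex, followed EIF4A1 in order with 6.78, 10.5 and 11.7. So did the helicase cofactor EIF4H, at 40.5, 59.5 and 62.9. EIF4B, another cofactor, was highest in the alive library, at 109, 119 and 147.

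Among the proteins that bind eIF4E, relatives had opposite orders. EIF4EBP1 had RPKM 21.1 in the stillborn library, 28.5 after spontaneous abortion and 49.5 in the alive library, a stillborn over alive ratio of 0.477 (0.418 to 0.544). EIF4EBP2, which also blocks eIF4E until mTOR phosphorylates it, had 331, 281 and 234, a ratio of 1.58 (1.56 to 1.61). EIF4EBP2 exceeded EIF4EBP1 per length by 15.6-fold in the stillborn library, 9.88-fold after spontaneous abortion and 4.72-fold in the alive library. EIF4ENIF1, which carries eIF4E into the nucleus, had 1.68, 2.15 and 2.54.

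EIF5A and EIF5A2 encode the factor that carries hypusine, a modified lysine, and helps ribosomes past stalling sequences such as proline runs. EIF5A had RPKM 13.7 in the stillborn library, 18.2 after spontaneous abortion and 33.3 in the alive library, with ratios of 0.460 (0.413 to 0.511) for stillborn over alive and 0.563 for spontaneous abortion over alive. EIF5A2 had 5.43, 5.53 and 3.15, with ratios of 1.93 (1.62 to 2.29) and 1.80. Both losses therefore stood on the same side of the alive library for each gene. Within a library EIF5A exceeded EIF5A2 per length by 2.52-fold in the stillborn library, 3.30-fold after spontaneous abortion and 10.6-fold in the alive library. EIF6, which keeps the large subunit from joining early, had 30.9, 39.5 and 45.4.

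**Figure D4:**
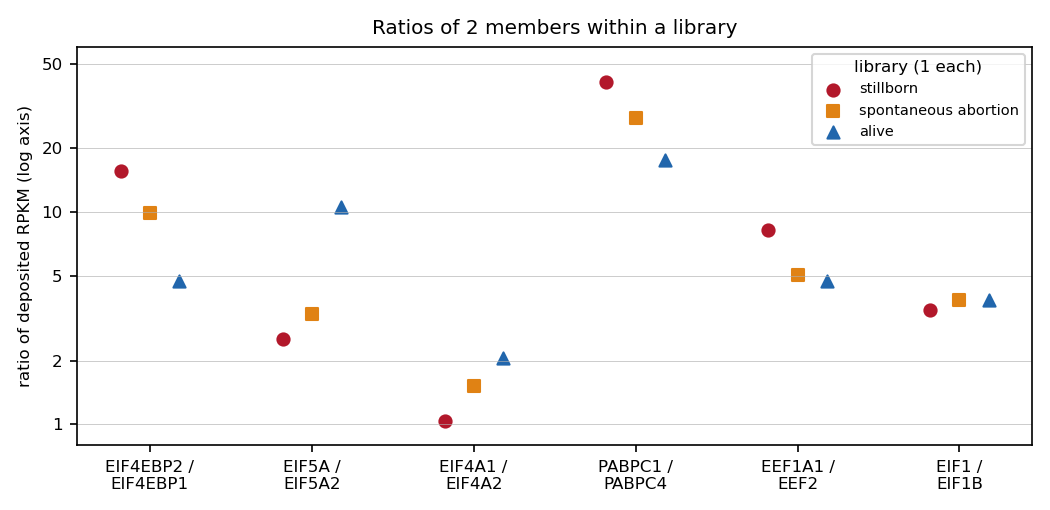
Ratio of the deposited RPKM of 2 members within the same library for 6 of the 10 pairs computed, on a log axis, with 1 point per library (red circle stillborn, orange square spontaneous abortion, blue triangle alive). The spontaneous abortion point lies between the others for 5 of the 6 pairs drawn (9 of all 10). The pairs were picked by hand and some share a gene, and no such share was computed for other gene pairs. EIF4EBP2 over EIF4EBP1 is at 15.6, 9.88 and 4.72, while EIF1 over EIF1B stays between 3.46 and 3.86.

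Among 33 other genes of the pathway, which cover termination and recycling, helpers and kinases of initiation, mitochondrial translation and hypusine synthesis, 32 had enough reads. For stillborn over alive 1 was past the limit as higher and 2 as lower, beside 13.1% and 12.5% of all genes. MTRF1, a mitochondrial release factor, had RPKM 4.42 in the stillborn and 1.62 in the alive library. TUFM, the mitochondrial elongation factor Tu, had 10.9 in the stillborn and 26.1 in the alive library, a ratio of 0.467 (0.427 to 0.509). DDX3X, an RNA helicase that helps long leaders to be scanned, had 9.27 and 20.9, a ratio of 0.496. In the other comparisons 0 of the 32 passed the limit in either direction, where the shares of all genes were 7.68% and 5.71% for spontaneous abortion over alive and 7.54% and 7.48% for stillborn over spontaneous abortion.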

How the data were processed

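Cell-free RNA of 3 vervet amniotic fluid supernatants was sequenced. Tools named in the submitters' processing notes are bcl2fastq 2.17, STAR and HTSeq. For the aligner, counter, genome build, annotation and strand setting, further detail was not given in these sources. The authors deposited RPKM per gene and library, with no account of the step that made it.

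Library totals and gene lengths were solved for as whole numbers from the deposited values, within the rounding of the last printed digit. The totals chosen gave lengths within 0.001 bases of a whole number for 89.5% of the 8984 genes used to choose them, against 0.234% for the next of 9 candidates. With these totals, a whole length that makes the reads whole within that rounding was found for 99.97% of the 23276 genes above 0. A factor common to a gene's reads and length cannot be seen, so reads are lower bounds, which sum to 96.6% to 97.1% of the totals. The recovery and the fold rule were also run on simulated reads that held counting error only and planted changes larger than 2-fold. That run cannot show how the rule behaves near 2-fold or with spread beyond counting error. TMM factors were 0.936 (stillborn), 1.02 (spontaneous abortion) and 1.05 (alive). Intervals are exact Clopper-Pearson, conditional on the sum of both numbers of reads. The amplified libraries carry no molecular identifiers, so intervals and floors (3 reads) cover counting error only.

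Log2 ratios are differences of scaled log2(RPKM + 0.1), which understates those of low genes, over members with a mean of at least RPKM 1. Other scalings, thinning, fold limits, read limits and pseudocounts were tried. Each status has 1 library, so no test was run. Scripts used Python 3.11.15, NumPy 2.4.6, SciPy 1.17.1 and pandas 2.3.3. The members and gene lists were chosen with earlier results of these data known. Named members were the 3 highest of each role, all past the limit, the 5 highest and 5 lowest ratios per comparison and 9 fixed genes. Members shown outside that rule complete a complex or a pair of relatives and were chosen after their values were seen. A further 13 listed genes, EIF3C among them, had no row under that symbol and were not analysed here. No sequences were used, because none was at hand for the members.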

Additional observations from a re-analysis of the deposited data

How the results depend on the processing

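No paired analysis was possible because each status has 1 library, and for the same reason no library could be left out. At a fold limit of 4, no member was past it in any comparison (0 as higher and 0 as lower), beside 1.51% to 4.71% of all genes. At 1.5, the counts were 10 as higher and 11 as lower for stillborn over alive, 3 and 5 for spontaneous abortion over alive, and 8 and 1 for stillborn over spontaneous abortion. The shares of all genes at that limit were 22.9% and 23.6%, 15.4% and 13.1%, and 15.6% and 17.1%. With scaling by total assigned reads, 5 members were lower for stillborn over alive and 0 higher for stillborn over spontaneous abortion, where the median log2 ratio of the members was -0.12 beside -0.14 for all genes. Further settings were scaling by the median of ratios, thinning to the smallest total, a minimum of 10 reads and no condition on the interval. They left every count of members within 1.5 times the reported one. The members behind a count could still change. When thinned, 6 members were again higher for stillborn over alive. EEF1E1 then stood at 1.94-fold, short of the limit, and EIF5A2 at 2.01-fold. As shares of reads rather than RPKM, the members held 5.78% in the stillborn library, 4.60% after spontaneous abortion and 4.62% in the alive library. Without EEF1A1 and TPT1 the shares of RPKM were 2.04%, 2.07% and 2.03%. Of 369 ratios of named members under 3 other settings, 361 kept their direction. The 8 that turned round belonged to EEF1G, EIF2S3, EEF2K, EIF4B, EIF4E and EIF5A2, and none was past the limit. These settings shift a ratio by much less than 2-fold, so they could not turn round a ratio past the limit. That none did is therefore no check of those ratios. With 1 library per status, the spread between pregnancies of 1 status is unknown, and no ratio here shows a difference between statuses.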
